A study of Mus musculus with 38 samples.

Results

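The peaks described here are the binding sites of the transcription factor RUNX1 in mouse lymphoid progenitors before Notch stimulation (LP) and in the earliest Notch-stimulated stage (Phase 1). All peaks of the LP and Phase 1 RUNX1 lists were used, promoters included. A peak was called shared where it overlapped a peak of the other list by at least 1 bp, and LP-specific or Phase 1-specific otherwise. The lists held 31995 LP peaks and 38399 Phase 1 peaks, 70394 of the 359759 peaks in the 17 ChIP-seq peak lists of the series. RUNX1 was immunoprecipitated from Cas9-LP cells, a line established from fetal liver progenitors that lack Ebf1 and carry Cas9 at the Rosa26 locus. LP cells were kept on OP9 stroma, and Phase 1 cells were moved to OP9 stroma expressing the Notch ligand DLL4 (OP9-DLL4). Both groups therefore share the Ebf1 deficiency, the Cas9 knock-in and the culture with SCF, Flt3L and IL-7, and both are a cell line rather than thymic cells. The lists measure occupancy and not expression, so the stage labels could not be checked against cell type markers. Each stage had 2 RUNX1 libraries, which the authors merged into 1 list of reproducible peaks, so no spread between replicates could be computed and no test of the stage was possible. All intervals below are 95% intervals that cover counting error over peaks only, and the lists hold no read depth per library.

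RUNX1 is the DNA-binding subunit of a heterodimer with CBFβ and recognizes a short motif, written here as the string TGTGGT on either strand. It occupies promoters and enhancers throughout blood cell development and is required for early T cell development. Notch signaling, which releases the intracellular domain of Notch1 (Notch1-IC) to bind DNA with RBPJ, starts the T-lineage program in lymphoid progenitors. CTCF, an architectural protein with its own long motif, Med12, a subunit of the Mediator kinase module, and p300, a histone acetyltransferase of active enhancers, were profiled in the same cells.

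The sequences under 7 peaks show the kinds of sites that the classes held. Each is the 200 bp around a peak centre on the + strand of mm10 (RefSeq GRCm38.p6), with capitals marking the RUNX string, the CTCF consensus (matched with at most 1 mismatch) or, in the peaks of Notch target genes, the RBPJ string TGGGAA. The first is the highest-ranked LP-specific peak with a RUNX string (chr17:84119606-84119805, 41 kb from the start of 4933433H22Rik). The next is the highest-ranked LP-specific peak with a CTCF consensus, at the Gtpbp2 promoter (chr17:46160203-46160402). The Notch3 window (chr17:32143183-32143382, in an exon) is the highest-ranked LP-specific peak of a Notch target gene. It holds no RUNX string, no RBPJ string and no CTCF consensus with at most 1 mismatch. The highest-ranked shared peak with a RUNX string is intergenic, 26.4 kb from the start of Dad1 (chr14:54227472-54227671). The highest-ranked Phase 1-specific peak with a RUNX string is in an intron of Cage1 and nearest to the start of Ssr1 (chr13:38010031-38010230). The last 2 are the highest-ranked Phase 1-specific peaks of Notch target genes, upstream of Tcf7 (chr11:52314264-52314463) and of Il2ra (chr2:11623228-11623427). In the Tcf7 window the RBPJ string overlaps a RUNX string by 1 base.
4933433H22Rik, LP-specific: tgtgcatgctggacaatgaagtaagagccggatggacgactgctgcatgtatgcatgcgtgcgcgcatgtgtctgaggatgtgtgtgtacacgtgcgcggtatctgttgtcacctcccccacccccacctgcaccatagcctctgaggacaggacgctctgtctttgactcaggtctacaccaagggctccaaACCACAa
Gtpbp2, LP-specific: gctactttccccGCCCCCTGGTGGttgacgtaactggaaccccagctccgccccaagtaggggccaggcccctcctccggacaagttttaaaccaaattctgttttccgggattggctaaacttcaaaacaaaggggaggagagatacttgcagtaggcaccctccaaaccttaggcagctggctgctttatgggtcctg
Notch3, LP-specific: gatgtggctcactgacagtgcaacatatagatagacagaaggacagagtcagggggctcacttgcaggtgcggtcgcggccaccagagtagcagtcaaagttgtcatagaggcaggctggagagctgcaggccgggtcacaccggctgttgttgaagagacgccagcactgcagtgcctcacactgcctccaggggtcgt
Dad1, shared: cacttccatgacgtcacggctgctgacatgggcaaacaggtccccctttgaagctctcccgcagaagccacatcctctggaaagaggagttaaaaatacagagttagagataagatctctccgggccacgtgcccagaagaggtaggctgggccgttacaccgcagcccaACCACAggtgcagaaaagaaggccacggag
Ssr1, Phase 1-specific: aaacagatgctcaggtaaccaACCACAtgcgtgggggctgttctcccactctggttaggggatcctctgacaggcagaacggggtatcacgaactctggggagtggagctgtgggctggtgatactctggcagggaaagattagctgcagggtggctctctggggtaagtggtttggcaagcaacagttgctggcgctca
Tcf7, Phase 1-specific: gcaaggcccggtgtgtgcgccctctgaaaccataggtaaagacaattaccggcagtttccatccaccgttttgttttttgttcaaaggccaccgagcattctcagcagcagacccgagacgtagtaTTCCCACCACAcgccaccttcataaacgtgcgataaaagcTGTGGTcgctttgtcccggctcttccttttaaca
Il2ra, Phase 1-specific: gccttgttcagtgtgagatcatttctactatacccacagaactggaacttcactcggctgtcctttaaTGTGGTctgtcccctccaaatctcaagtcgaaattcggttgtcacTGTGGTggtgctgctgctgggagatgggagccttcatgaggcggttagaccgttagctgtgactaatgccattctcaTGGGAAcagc
The Tcf7 and Il2ra windows each held 2 RUNX strings and 1 RBPJ string, whereas each of the other windows held at most 1 RUNX string. Only exact RUNX and RBPJ strings were counted, so variants of these motifs are not marked.

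Most RUNX1 sites were occupied at both stages, and the Phase 1 list gained more sites than it lost. Of 43784 sites in both lists together, 26610 were shared (60.8%), always 1 peak with 1 peak. LP-specific peaks numbered 5385, or 16.8% of the LP list (interval 16.4% to 17.2%). Phase 1-specific peaks numbered 11789, or 30.7% of the Phase 1 list (interval 30.2% to 31.2%). There were thus 2.19 Phase 1-specific peaks for each LP-specific peak. Over 19 chromosomes (chromosome 18 was left out of the range) the LP-specific share ran from 13.4% to 19.0% and the Phase 1-specific share from 24.9% to 37.6%. The Phase 1 list was also longer, and when it was cut to its 31995 highest-scored peaks each class held 7139 peaks.

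Promoter occupancy changed far less than occupancy elsewhere. Among peaks annotated as promoter-TSS, 522 of 9112 LP peaks were LP-specific (5.73%) and 694 of 9244 Phase 1 peaks were Phase 1-specific (7.51%). Outside promoters the shares were 21.3% of 22883 LP peaks and 38.1% of 29155 Phase 1 peaks. Promoter peaks also scored higher, so the classes were set side by side within 5 score classes of equal size. In the second highest class, 2.04% of LP promoter peaks were LP-specific against 4.86% of LP peaks elsewhere, and 2.83% against 13.3% in Phase 1. In the lowest class, the LP shares were close to each other, at 43.2% for promoters (38.3% to 48.2%) and 45.1% elsewhere (43.9% to 46.4%), whereas the Phase 1 shares were 60.3% (55.5% to 65.0%) and 71.2% (70.1% to 72.2%).

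Stage-specific peaks were concentrated at the low end of both lists. Peak Score, a normalized tag count given by HOMER, had a minimum of 15 in both lists and was compared only by rank within a list. Median scores were 22.8 among LP-specific and 23.2 among Phase 1-specific peaks, against 56.6 and 62.2 for shared peaks in the LP and Phase 1 lists. With each list divided into 10 bins by rank, the LP-specific share rose from 0.907% in the highest bin to 51.2% in the lowest, and the Phase 1-specific share from 1.56% to 75.3%. The Phase 1-specific share was above the LP-specific share in all 10 bins. The highest LP-specific peak was ranked 227 in its list and the highest Phase 1-specific peak was ranked 170. Peak shape, as the focus ratio (the fraction of a peak's tags located near its centre), had medians of 0.772 in LP-specific and 0.773 in shared LP peaks, and of 0.805 in Phase 1-specific and 0.798 in shared Phase 1 peaks.

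**Figure D1:**
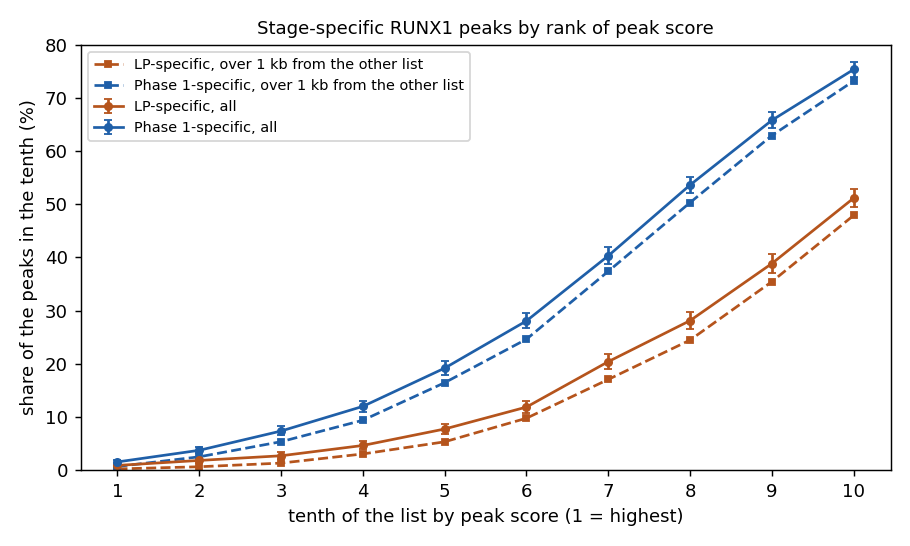
Share of stage-specific peaks (y axis, percent, with 95% exact binomial intervals) in 10 bins of each RUNX1 list by rank of peak score (x axis, 1 is the highest bin). Solid lines show all stage-specific peaks and dashed lines those more than 1 kb from any peak of the other list; the shares rise from 0.907% to 51.2% in LP and from 1.56% to 75.3% in Phase 1.

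Part of the highest-ranked stage-specific peaks lay next to a peak of the other stage. Peaks of the LP list were 341 bp wide and those of the Phase 1 list 329 bp, so that a moved peak centre can place adjacent peaks in different classes. Of LP-specific peaks, 735 (13.6%) had a Phase 1 peak within 1000 bp, and of Phase 1-specific peaks 926 (7.86%) had an LP peak within 1000 bp. This share fell with rank. It was 67%, 40.3%, 22.9%, 14.4% and 7.4% from the highest to the lowest score class of LP-specific peaks, and 39.2%, 23.8%, 13.1%, 6.63% and 3.56% for Phase 1-specific peaks. At promoters the shares were 26.8% of the 522 LP-specific and 21.6% of the 694 Phase 1-specific peaks. At the edge of the overlap rule, the 13 peaks of each class that missed an overlap by up to 10 bp had median scores of 31.8 in LP and 38.4 in Phase 1, and the 16 pairs that overlapped by up to 10 bp had medians of 37.8 and 44.7. Few pairs were near that edge, since the median overlap of shared peaks was 314 bp and 130 pairs (0.489%) overlapped by 100 bp or less.

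A few genomic positions gave a high-ranked peak to both classes at once: Cic, Mnt, Mir8102 with Pip4k2b, and Fam76b with Cep57. At the promoter of Mnt, which encodes a repressor of the MYC network, an LP-specific peak (chr11:74830197-74830537, score 351.4, rank 237) and a Phase 1-specific peak (chr11:74830626-74830954, score 357.1, rank 379) were 88 bp apart. At Cic, which encodes a transcriptional repressor, the LP-specific promoter peak (score 355.4) and the Phase 1-specific intron peak (score 343.3) were 183 bp apart. The pairs at Mir8102 (scores 258.4 and 269.6) and at Fam76b and Cep57 (229.1 and 274.3) were 57 and 150 bp apart. These 4 pairs made up 4 of the 10 highest-scored peaks of each class. In all, 442 LP-specific peaks (8.21%) had a Phase 1-specific peak within 1 kb.

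The other high-ranked stage-specific peaks included sites with no close counterpart. Axin2, a feedback inhibitor of Wnt signaling, had a Phase 1-specific peak 91.6 kb from its start (chr11:109011747-109012075, score 275.6) whose nearest LP peak was 91243 bp away. A Phase 1-specific peak at −5.07 kb from Mir142, a microRNA gene of hematopoietic cells, scored 405.6 and was 1771 bp from the nearest LP peak. Tubb5, a tubulin gene, had a Phase 1-specific intron peak with a score of 296.5 and a gap of 4130 bp, and this site was also in the RUNX1 list of LP cells with a control guide. Gse1 (score 286.1, gap 1434 bp) and Calr (score 280.3, gap 477 bp) completed the highest Phase 1-specific peaks together with the Cage1 intron (score 431.0, gap 257 bp). Among LP-specific peaks, Brd2, a bromodomain gene, was the only one of the 10 highest with a gap over 1 kb (score 221.6, 1314 bp). The others were at Crlf2, a cytokine receptor gene (score 246.9), Ppcdc (245.9), Tpm3 (232.8), Foxo3, a forkhead factor (229.5), and Zfp36l2 (218.6), with gaps of 16 to 593 bp. The Crlf2 site was also in the RUNX1 list of Phase 1 cells with a control guide.

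The RUNX1 lists of guide-control cells, which were far shorter, gave the same sites in other libraries. Of the 975 peaks of LP cells with a control guide, 941 overlapped a shared peak (96.5%), 13 an LP-specific peak and 8 a Phase 1-specific peak. Of the 1550 peaks of Phase 1 cells with a control guide, 1462 overlapped a shared peak (94.3%), 67 a Phase 1-specific peak (4.32%) and 7 an LP-specific peak. In the highest score class, 38 of 204 Phase 1-specific peaks were in the Phase 1 guide-control list and 7 in the LP guide-control list. Of the 88 LP-specific peaks of that class, 13 were in the LP guide-control list and 6 in the Phase 1 guide-control list. Among the 7475 shared Phase 1 peaks of the highest class, 1345 were in the Phase 1 guide-control list and 897 in the LP one. Among the 6311 shared LP peaks of the highest class, 1041 were in the Phase 1 guide-control list and 903 in the LP one. When peaks within 1 kb of the other list were set apart, the 124 remaining Phase 1-specific peaks split 24 against 1, while the 29 remaining LP-specific peaks split 2 against 2. Neither stage prevailed among the latter, and the short guide-control lists limit this comparison to the strongest sites.

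The classes differed in where they lay. Promoters held 9.69% of LP-specific, 5.89% of Phase 1-specific and 32.3% of shared peaks. Since stage-specific peaks ranked low, shared peaks were also weighted to the score classes of each stage-specific class, and promoters then held 13.0% and 14.6% of the shared peaks matched to LP-specific and Phase 1-specific peaks. The Phase 1-specific share was lower than the LP-specific share by 3.81 percentage points (interval −4.72 to −2.93). Introns held 43.7% of LP-specific and 45.5% of Phase 1-specific peaks, and intergenic DNA held 38.3% and 43.7%, a difference of 5.41 points (3.82 to 6.98). Exons went the other way, with 2.93% of LP-specific and 1.27% of Phase 1-specific peaks (difference −1.66 points, −2.18 to −1.19), against 1.52% and 1.92% of matched shared peaks.

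**Figure D2:**
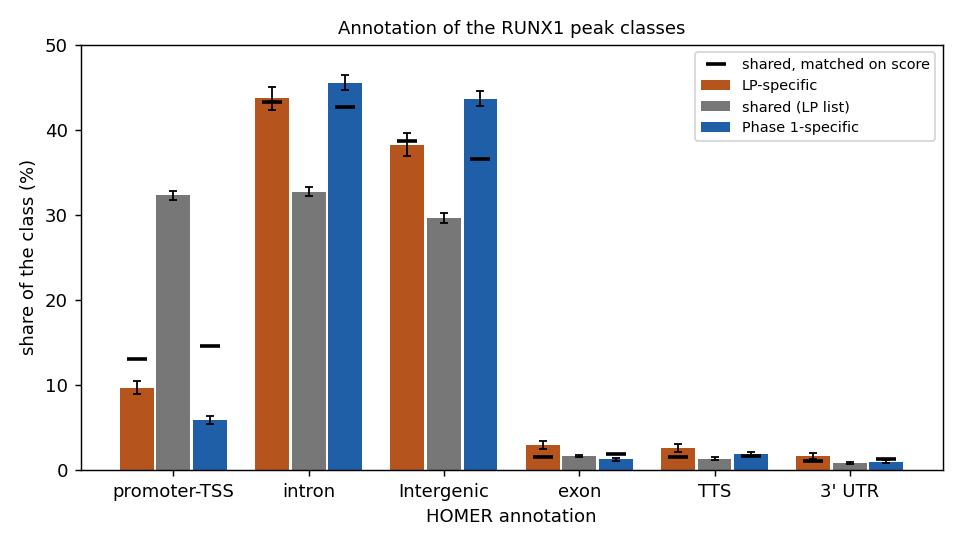
Share of each class of RUNX1 peaks (y axis, percent, bars with 95% exact binomial intervals) by HOMER annotation (x axis). Black marks give shared peaks weighted to the score classes of the stage-specific class beside them; promoters hold 9.69% of LP-specific and 5.89% of Phase 1-specific peaks, and both bars are below their matched shared peaks.

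LP-specific peaks were nearer to gene starts than Phase 1-specific peaks, also outside promoters. The median distance to the nearest start was 14.2 kb for LP-specific, 21.9 kb for Phase 1-specific and 8.02 kb for shared peaks, and outside promoters 16.7, 24.0 and 19.8 kb. Between 1 and 10 kb from a start lay 28.5% of LP-specific peaks, against 19.7% of matched shared peaks and 22.2% of Phase 1-specific peaks. Beyond 100 kb lay 6.50% of LP-specific and 11.4% of Phase 1-specific peaks, against 9.98% and 8.91% of their matched shared peaks.

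Repeat annotation separated the classes further. SINE B2 elements, short retrotransposons of rodents, some of which carry a CTCF motif, held 173 LP-specific peaks (3.21%, interval 2.76% to 3.72%) and 150 Phase 1-specific peaks (1.27%), against 1.09% and 1.27% of matched shared peaks. The difference was −1.94 points (−2.48 to −1.45). Of the 60 LP peaks in B2_Mm2 copies, 40 were LP-specific (66.7%, 53.3% to 78.3%), of the 183 in B3 copies 86 were (47.0%), and of the 113 in B3A copies 41 were (36.3%), against 16.8% of the whole LP list. In Phase 1 the Phase 1-specific shares were 40.0% of 40 peaks in B2_Mm2 copies, 37.2% of 145 in B3 and 50.0% of 146 in B3A (41.6% to 58.4%), against 30.7% of the whole list. In B2 elements, CTCF of the same stage was present at 87.9% of the LP-specific and 22.7% of the Phase 1-specific peaks. Phase 1-specific peaks lay more often in LINE L1 (3.86% against 2.01% of LP-specific peaks; matched shared 2.47% and 2.98%) and in ERVL-MaLR elements (5.44% against 3.36%; matched 4.88% and 5.57%).

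LP-specific RUNX1 peaks overlapped CTCF peaks far more often than other RUNX1 peaks did, and mostly at the weak end of the list. Measured against the CTCF list of the same stage, 36.8% of LP-specific, 20.5% of shared LP and 6.96% of Phase 1-specific peaks coincided with CTCF. Matched shared peaks had 14.0% in LP and 17% in Phase 1. In the highest score class the LP-specific and shared shares were 20.5% (12.6% to 30.4%) and 25.1% (24.1% to 26.2%), and the intervals overlapped. In the lowest class they were 37.5% (35.7% to 39.3%) and 10.1% (9.17% to 11.2%). In Phase 1 the order was the reverse in every class, from 15.7% against 22.7% in the highest to 6.75% against 16.3% in the lowest. CTCF peaks at LP-specific sites were mostly present at both stages: 94.1% of the 1980 LP-specific peaks with an LP CTCF peak also had a Phase 1 CTCF peak.

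**Figure D3:**
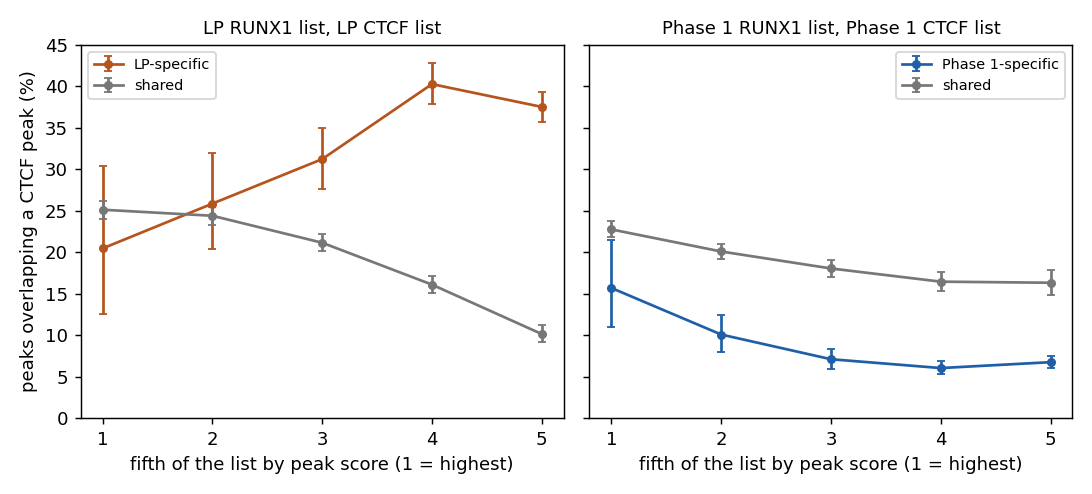
Share of RUNX1 peaks that overlap a CTCF peak of the same stage (y axis, percent, with 95% exact binomial intervals) by class of peak score (x axis, 1 is the highest of 5 classes). In LP (left panel) the LP-specific share is 20.5% in the highest class and 37.5% in the lowest, while the shared share falls from 25.1% to 10.1%; in Phase 1 (right panel) the Phase 1-specific share is below the shared share in all 5 classes.

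The partners of RUNX1 differed between the classes in combination. Med12 and p300 peaks without CTCF accompanied 36.4% of LP-specific and 63.5% of Phase 1-specific peaks. The shares were 68.3% and 69.8% of shared peaks in the LP and Phase 1 lists, which were not matched on score. CTCF with neither Med12 nor p300 accompanied 7.58% of LP-specific and 0.891% of Phase 1-specific peaks. None of the 3 factors was found at 10.5% of LP-specific and 12.6% of Phase 1-specific peaks. Med12 of the same stage was found at 61.9% of LP-specific and 75% of Phase 1-specific peaks, against 71.8% and 72.7% of matched shared peaks. For p300 of the same stage the shares were 76.0% and 79.6%, against 84.7% and 77.9%. LP-specific peaks were thus below their matched shared peaks and Phase 1-specific peaks slightly above theirs. At the other stage, Med12 was found at 15% of LP-specific and 8.4% of Phase 1-specific sites, and p300 at 27.5% and 19.4%. Most stage-specific RUNX1 sites with a Med12 peak thus had it at the same stage only.

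The DNA under the classes differed in how often it held the RUNX string. Within 100 bp of the centre, TGTGGT was found in 51% of Phase 1-specific, 38.0% of shared and 30.0% of LP-specific peaks, against 15.3% and 16.2% of windows of the same length 2 kb from Phase 1-specific and LP-specific peaks. Matched shared peaks had 41.6% and 47.3%. The stage-specific classes differed by 20.95 points (19.4 to 22.5). Promoter peaks rarely held the string (10.1% of shared Phase 1 promoter peaks). Outside promoters the share was 52.95% in Phase 1-specific, 52.4% in shared Phase 1 and 32.3% in LP-specific peaks. Shared peaks outside promoters had 47.4% when matched to Phase 1-specific and 52.4% when matched to LP-specific peaks. LP-specific peaks thus stood apart there. Phase 1-specific peaks were close to all shared peaks and above the matched ones. The difference between the stage-specific classes did not follow score. The share ran from 27.2% to 32.6% over the 5 score classes of LP-specific peaks, and from 49.3% to 57.3% in Phase 1-specific peaks. The CTCF consensus went the other way, with 23.2% of LP-specific and 3.11% of Phase 1-specific peaks (flanks 2.76% and 2.27%). LP-specific peaks with a CTCF peak held the RUNX string in 21.2% and those without one in 35.2%.

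Further strings also differed between the stage-specific classes, but not all in the same direction. The median GC share of the windows was 51% in LP-specific, 49% in Phase 1-specific and 54% in shared peaks. String shares were not adjusted for it. The AP-1 string TGACTCA was found in 14.6% of Phase 1-specific and 5.09% of LP-specific peaks (flanks 3.79% and 3.83%), and the GATA string AGATAA in 12.4% and 6.59% (flanks 11.1% and 10.6%). The RBPJ string TGGGAA was found in 20.7% and 13.7% (flanks 18.2% and 18.8%). For the GATA and RBPJ strings the LP-specific shares were below the flanks. Shared LP peaks were below theirs as well, at 5.98% against 10.6% for GATA and 14.3% against 18.6% for RBPJ. The Phase 1-specific shares were little above the flanks over the whole class. They reached 19.4% for GATA in the second highest score class and 27.5% for RBPJ in the highest. Shared peaks matched to Phase 1-specific peaks had lower shares, 6.74% for GATA and 13.1% for RBPJ. The TCF/LEF string CTTTGA was found in 15% and 11.4% (flanks 13.6% and 13.7%). The E-box CAGCTG was more frequent in LP-specific (22.3%) than in Phase 1-specific peaks (16.1%), with flanks at 10.0% and 9.49%. The PU.1 string GAGGAAG was found in 17.6% of LP-specific and 15.9% of Phase 1-specific peaks (flanks 7.45% and 7.62%). Both were below their matched shared peaks, at 22.3% and 23.1%. A string match describes the letters in the window and does not show which factor was bound.

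**Figure D4:**
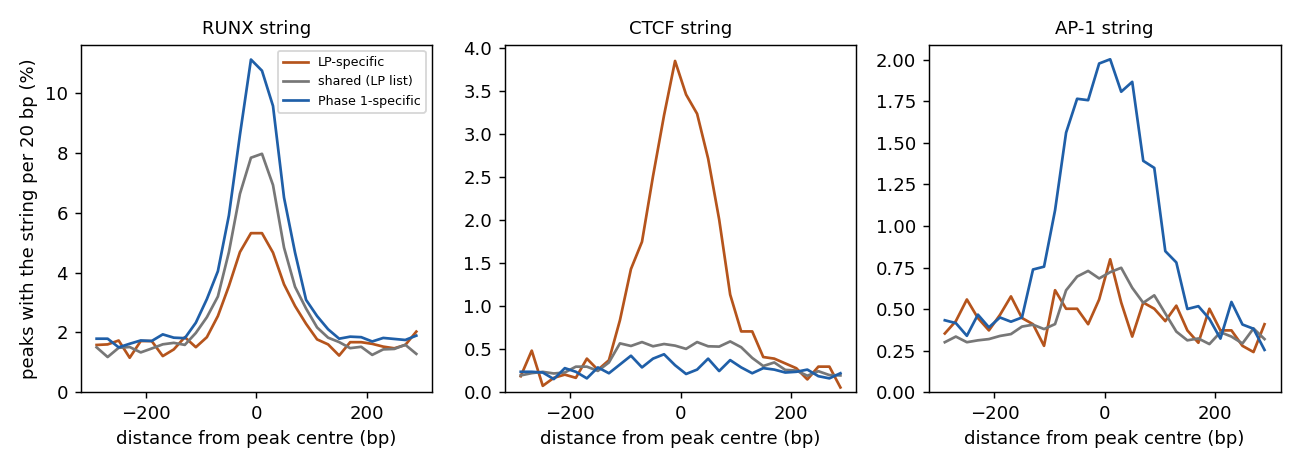
Share of peaks with a string in each 20 bp bin (y axis, percent) by distance from the peak centre (x axis, bp) for the RUNX, CTCF and AP-1 strings. The RUNX string peaks at the centre in all classes and the CTCF string in LP-specific peaks (3.8% in the central bin). The AP-1 string peaks there in Phase 1-specific peaks (2.0%) and more weakly in shared peaks (0.72%).

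The RUNX string was concentrated at the centres of all classes and the CTCF consensus at those of LP-specific peaks. The AP-1 string was concentrated at the centres of Phase 1-specific peaks and, less strongly, of shared peaks. In peaks with a match, its median offset from the centre was 42 bp in Phase 1-specific, 43 bp in shared and 49 bp in LP-specific peaks. The median offset of the RUNX string was 31.5 bp in LP-specific and 27.5 bp in shared LP peaks. In Phase 1 it was 25.5 bp in both shared and Phase 1-specific peaks. The median offset of the CTCF consensus in LP-specific peaks was 34.5 bp, against 48.5 bp in Phase 1-specific peaks, where no central maximum was seen. Phase 1-specific peaks with the AP-1 string (1725 peaks) overlapped a Phase 1 Med12 peak in 87.4% and a p300 peak in 91.7%, against 72.9% and 77.5% of those without it. The share with a RUNX string was 41.3% of Phase 1-specific peaks with the AP-1 string and 52.6% of those without it.

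Shared peaks kept much of their order between the stages, less so outside promoters. Across the 26610 shared pairs the percentile ranks in the LP and Phase 1 lists correlated with r = 0.82 and rho = 0.84. These are correlations across sites of the same merged libraries, given as a description. At the 8590 promoter pairs r was 0.92, and at the 18020 other pairs 0.76. A rise of at least 25 percentile points in Phase 1 was found at 2757 pairs (10.4%) and a fall of that size at 708 (2.66%). These percentile ranks come from lists of unequal length, and the median change over all pairs was 2.59 points. With ranks taken among the shared peaks only, an alternative chosen after seeing the data, 1768 pairs (6.64%) rose and 1223 (4.60%) fell by at least 25 points. At promoters the order then turned, from 110 rises and 29 falls to 49 and 115.

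The largest rises were at peaks close to the score minimum in LP. A peak at −159.6 kb from the start of Slc16a7, a monocarboxylate transporter gene (chr10:125488353-125488693 in LP), went from percentile 0.667 to 92.4, and an intron peak of Nck2, an adaptor of antigen receptor signaling, from percentile 0.667 to 90.9. Peaks in an intron of Cmtr1, nearest to Ccdc167 (0.338 to 91.1), and near Cnpy1 (2.26 to 88.6) followed. The peak 270.7 kb downstream of the start of Gata3, a T-lineage transcription factor, went from percentile 2.61 to 88.7. The largest falls were at an intron of Cuedc1 (89.7 to 3.17), near Ajap1 (87.9 to 5.10), Chkb (76.4 to 3.17), Plekhg5 (78.3 to 6.39) and C130026L21Rik (77.1 to 10.6).

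The neighbours of stage-specific peaks were compared next. The nearest peak of the same list was also Phase 1-specific for 38.1% of Phase 1-specific peaks (37.3% to 39.0%) and for 27.9% of shared Phase 1 peaks. In LP the corresponding shares were 19.9% (18.8% to 20.95%) and 17%. The excess in Phase 1 was found in the 3 lower score classes, at 35.1%, 39.6% and 40.2% against 29.9%, 28.8% and 28.2% of shared peaks. In the highest class the share was 21.6% against 26.7%. When the Phase 1 list was cut to the length of the LP list the shares were 27.6% in Phase 1 and 26.4% in LP, so the gap between the stages depended on list length.

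Runs of at least 3 consecutive peaks of 1 class, with gaps of up to 25 kb, numbered 453 in Phase 1 (1541 peaks, 13.1% of the class) and 92 in LP (289 peaks, 5.37%). The longest Phase 1-specific runs had 7 peaks, at Vgll4, a cofactor of TEAD factors (chr6:114816595-114866493), at Akap6 with 1700031P21Rik, and at Krt80 with Mir1941. Next were a run of 6 peaks spanning 23.6 kb (chr2:9558576-9582202), 296.6 to 319.9 kb from the start of Gata3, all 6 with a Phase 1 Med12 peak, 5 with a p300 peak and 0 with a CTCF peak, and 6 peaks at Dtx1 and Oas2. LP-specific runs had at most 4 peaks. They included 4 peaks over 15.8 kb at Cd9, a tetraspanin gene (chr6:125489115-125504907), and 4 peaks at Ndufa4l2, Nxph4 and Shmt2, 3 of them with an LP CTCF peak. The run counts also depended on list length. With the Phase 1 list cut to the length of the LP list, an alternative chosen after seeing the data, there were 165 Phase 1-specific runs (7.52% of the class) and 174 LP-specific runs (7.97%).

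Counted by nearest gene, 15447 genes had a RUNX1 peak and 6838 of them (44.3%) had shared peaks only. More Phase 1-specific than LP-specific peaks were found at 5469 genes (35.4%) and the reverse at 2214 genes (14.3%). At least 5 Phase 1-specific peaks were found at 297 genes and at least 5 LP-specific peaks at 34. Tns3, a focal adhesion gene, had 15 Phase 1-specific, 13 shared and 3 LP-specific peaks. Frmd4a had 14 Phase 1-specific peaks, 1 shared and 0 LP-specific, and Angpt1, a ligand of the Tie2 receptor, had 10 Phase 1-specific peaks and no others. Nfatc2 and Ppp3ca, which encode a transcription factor and the calcineurin catalytic subunit that activates it, each had 11 Phase 1-specific and 0 LP-specific peaks. Akap13 had 8 peaks of each class, and Runx1 itself had 7 LP-specific, 24 shared and 7 Phase 1-specific peaks. Cd9 had 6 LP-specific, 4 shared and 3 Phase 1-specific peaks.

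Notch target genes had the highest Phase 1-specific share of the 11 gene lists by nearest gene. Gata3, Il2ra and Dtx1 held 9, 6 and 5 of their 38 Phase 1-specific peaks. Of the Phase 1 peaks of the Notch target genes 51.4% were Phase 1-specific, against 30.7% over the whole list. More Phase 1-specific than LP-specific peaks were found at 12 of the 17 genes and the reverse at 2. Over all genes with a RUNX1 peak these shares were 35.4% and 14.3%. Of 42 stage-specific peaks nearest to the 17 genes, 90.5% were Phase 1-specific (77.4% to 97.3%), against 68.6% over all genes. When every start within 100 kb was counted in place of the nearest one, the share was 66% of 103. That count over all genes was 62.4%. Over the 11 lists it ran from 55% in B-lineage genes to 72.9% in innate lymphoid genes, so the Notch targets did not lead on this measure. The list was chosen with results of these cells known. Notch pathway genes, a list that shares 5 members with the targets, had 40.9% of their Phase 1 peaks Phase 1-specific. More Phase 1-specific than LP-specific peaks, counted here as higher in Phase 1, were found at 14 of these 26 genes (35.4% over all genes). The reverse was found at 5 (14.3%). These counts were not tested. Here and below, list counts include listed genes without a RUNX1 peak, whereas 35.4% and 14.3% are over genes with one. The counts were not adjusted for the number of peaks per gene.

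Hes1, the repressor that is a classical Notch target, had 3 Phase 1-specific and 6 shared peaks. Its promoter peak (chr16:30065068-30065396, score 136.8) was Phase 1-specific and overlapped a Notch1-IC peak of Phase 1, and the shared peak next to it, at −1.1 kb, was ranked 6351 in LP and 1720 in Phase 1. Dtx1, a ubiquitin ligase gene induced by Notch, was the nearest gene of 5 Phase 1-specific peaks and of no other RUNX1 peak. Within 100 kb of its start lay 3 LP-specific, 9 shared and 7 Phase 1-specific peaks. Intron peaks at chr5:120685710-120686038 (score 137.9) and chr5:120688453-120688781 (score 127.6) each coincided with Notch1-IC binding at Phase 1 and also at Phase 2. Its promoter peak scored 27.8. Notch1 had a Phase 1-specific intron peak 1.5 kb from its start (score 98.8), also with a Notch1-IC peak, beside a shared promoter peak. Such overlaps were rare over the whole class. A Phase 1 Notch1-IC peak was found at 20 of 11789 Phase 1-specific peaks (0.170%; matched shared 0.0838%). Shared Phase 1 peaks had one at 110 of 26610 (0.413%).

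Il2ra, which encodes CD25, the surface marker of T-lineage specification, had 6 Phase 1-specific, 4 shared and 0 LP-specific peaks. The highest was at −19.5 kb (score 206.9), had Notch1-IC, Med12 and p300 peaks, and holds the sequence printed above. Gata3 had 9 Phase 1-specific, 9 shared and 0 LP-specific peaks. All 9 Phase 1-specific peaks lay 188.9 to 319.9 kb from the start, whereas the promoter peak was shared. The shared peak 284.4 kb away (chr2:9593985-9594325) went from rank 7752 in LP to rank 336 in Phase 1. Tcf7, which encodes TCF1, had 3 Phase 1-specific, 4 shared and 1 LP-specific peaks. Its Phase 1-specific peaks at −31.4 and −22.5 kb scored 252.5 and 152.1, and its LP-specific intron peak scored 24.8 and overlapped a CTCF peak. Hes5 and Notch3 each had a single LP-specific peak and no Phase 1-specific one, both with an LP CTCF peak. Hes5 had 0 shared peaks, whereas Notch3 had 2. The best rank of a Notch3 peak was 8122.5 in LP and 3027 in Phase 1.

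**Figure D5:**
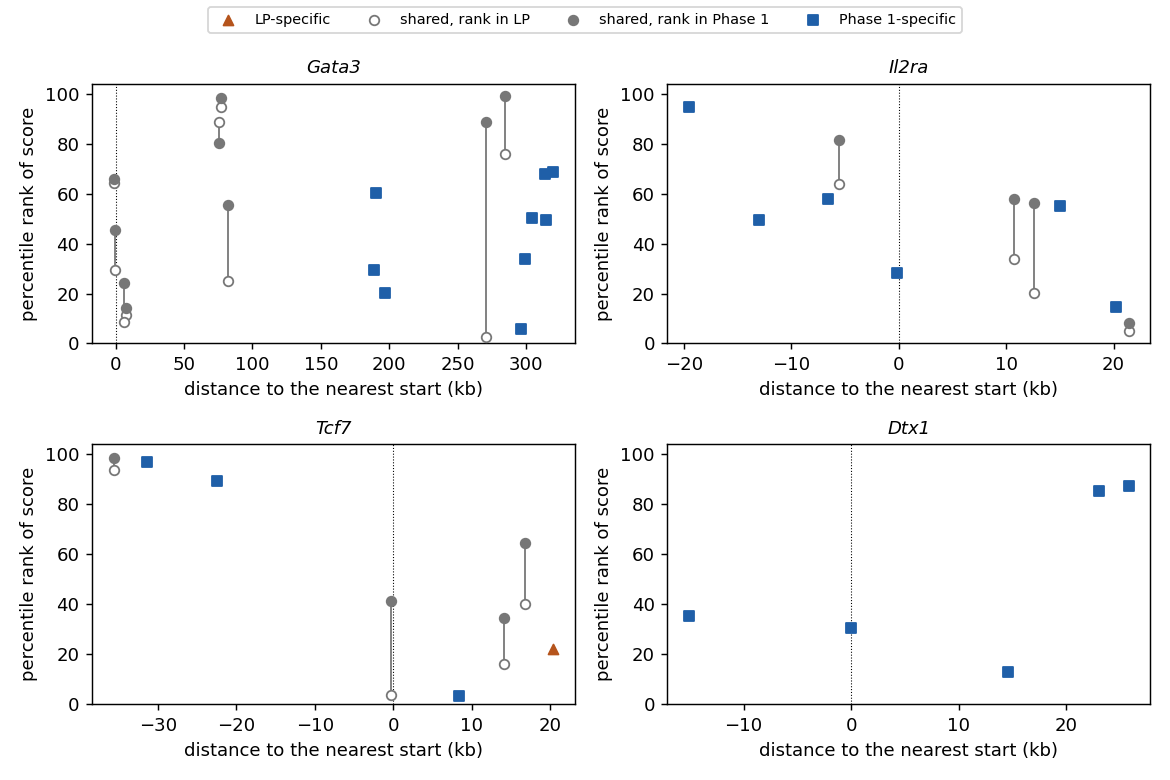
RUNX1 peaks nearest to Gata3, Il2ra, Tcf7 and Dtx1 by distance to the nearest transcription start (x axis, kb) and percentile rank of peak score within the list (y axis, 100 is the highest). Squares are Phase 1-specific and triangles LP-specific peaks, and open and filled circles joined by a line are the ranks of a shared peak in LP and Phase 1; Dtx1 has 5 squares only.

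Among the components of the pathway, Rbpj, the DNA-binding partner of Notch, had 8 Phase 1-specific and 0 LP-specific peaks, 7 of them upstream of the start and all with scores of 15.4 to 29.0. Fbxw7, the ligase subunit that targets intracellular Notch for degradation, had 7 and 0, the highest with a score of 133.8 at −66.2 kb. Maml3, a Notch coactivator, had 5 LP-specific and 3 Phase 1-specific peaks, and Lfng, which modifies Notch receptors, had 7 shared peaks and no stage-specific one.

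T-lineage transcription factors had 19 LP-specific, 110 shared and 56 Phase 1-specific peaks. Of these 22 genes, 20 had a RUNX1 peak, 13 were higher in Phase 1 (35.4% over all genes with a peak) and 1 in LP (14.3%). Of their Phase 1 peaks 33.7% were Phase 1-specific, against 30.7% of the whole list, and of their stage-specific peaks 74.7% (63.3% to 84.0%), against 68.6% over all genes by nearest gene. By starts within 100 kb the share was 62.5%, against 62.4% over all genes. The gene higher in LP was Klf2, a quiescence and migration factor, with 3 LP-specific and 1 Phase 1-specific peaks, the highest LP-specific one at a score of 96.7. Lef1 had 7 Phase 1-specific and 1 LP-specific peaks. Its LP-specific peak (chr3:131013995-131014335, score 38.4) and its highest Phase 1-specific peak (chr3:131014348-131014676, score 106.5) were 12 bp apart. Tox had 7 Phase 1-specific and 2 LP-specific peaks, and Foxo1 had 7 shared peaks only. Of T cell receptor and signaling genes, 11 of 26 were higher in Phase 1 (35.4% over all genes) and 3 in LP (14.3%), with 24.6% of their Phase 1 peaks Phase 1-specific. Cd3e had 3 Phase 1-specific and 0 LP-specific peaks, and Fyn, a Src family kinase gene, had 4 LP-specific and 2 Phase 1-specific peaks.

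Genes listed here as stem and progenitor, myeloid or B-lineage had Phase 1-specific sites as well. Stem and progenitor factors had 10 LP-specific and 39 Phase 1-specific peaks, the latter 34.8% of their Phase 1 peaks. Of these 22 genes, 12 were higher in Phase 1 (35.4% over all genes) and 2 in LP (14.3%). Mef2c had 7 and Kit, the SCF receptor, 6 Phase 1-specific peaks, and neither had an LP-specific one. The paper counts Kit and Nfe2, both in the stem and progenitor list, among Notch-regulated T-signature genes. Fli1 had 4 LP-specific and 3 Phase 1-specific peaks. Myeloid genes had 20.0% and B-lineage genes 22.6% of their Phase 1 peaks Phase 1-specific, both below the 30.7% of the whole list. Irf8, a factor of myeloid and dendritic cells, stood out among them with 5 LP-specific, 16 shared and 2 Phase 1-specific peaks, and its highest LP-specific peak was in an intron 2.1 kb from the start (score 58.6). Cytokine receptor genes had 31.5%, innate lymphoid genes 26.8%, and RUNX family and partner genes 28.8%. Tgfbr2 had 4 LP-specific and 2 Phase 1-specific peaks. Ribosomal protein genes, taken as a comparison, had 12.5%, with 4 of 39 genes higher in Phase 1 and 3 in LP.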

How the data were processed

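The series holds 38 samples in 19 groups of 2. Per the labels and the study's methods, the authors mapped ChIP-seq reads to mm10 with Bowtie (1.1.1), called and annotated peaks with HOMER (version not given in the sources used here), and merged the replicates of each group into 1 list by irreproducibility discovery rate. Labels and methods differ on sequencer and read mode. The deposited Peak Score is a score (normalized tags, at least 15), the deposited Focus Ratio is a fraction, and the deposited Distance to TSS is in bp. The lists hold no depth per library, and the methods give only an approximate read number for all samples. The study describes its ChIP-seq replicates as biological.

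Positions were checked against RefSeq GRCm38.p6: 51413 of 53979 stated distances matched a start within 5 bp, and 0 of 359759 peaks passed a chromosome end. Gene symbols came from the nearest promoter accession (99.8% matched in each list). Shares have exact Clopper-Pearson intervals and differences Newcombe intervals. Matched shared peaks were weighted to the 5 score classes of the stage-specific class. Distance bins, strings and runs used Python 3.11.15, numpy 2.4.6, pandas 2.3.3, scipy 1.17.1, pysam 0.24.0 and matplotlib 3.10.9, after the overlap code was tested on simulated intervals. Named items were the 10 highest-scored peaks of each stage-specific class, the 5 largest rank changes in each direction, the 5 longest runs and 10 genes with most peaks per class, and members of the 11 gene lists, from which examples were chosen after their values were seen. Sequences were the highest-ranked of each kind, skipping windows in UTRs. Members and lists were chosen with earlier results of these data known. Alternatives were another overlap rule, a score minimum of 30, lists of equal length, promoters left out, starts within 100 kb and a 50 bp window. Ranks among shared peaks, runs at equal length and the 100 kb count over 15037 genes were added after seeing the data.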

Additional observations from a re-analysis of the deposited data

How the results depend on the processing

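No paired analysis was possible because each list merges its replicates, and for the same reason no replicate could be left out. Phase 1-specific peaks outnumbered LP-specific peaks under each alternative except lists of equal length, where both classes held 7139 by construction. With a minimum Peak Score of 30 in both lists there were 3089 LP-specific and 6268 Phase 1-specific peaks, promoter shares of 14.0% and 7.07%, and same-class neighbour shares of 16.4% and 32.0%. Counting centres at most 100 bp apart as shared gave promoter shares of 13.3% and 7.83% and neighbour shares of 22.8% and 39.8%. Counting any peak within 1000 bp as shared gave promoter shares of 8.22% and 5.01%. With lists of equal length the promoter share of Phase 1-specific peaks was 6.61% and the neighbour shares were 26.4% in LP and 27.6% in Phase 1. Without promoters the neighbour shares were 24.7% and 44.5%. Under each alternative that kept promoters the promoter share was higher in LP-specific than in Phase 1-specific peaks (9.13% and 6.61% with lists of equal length). The neighbour share was lower in LP under each alternative. A neighbour share depends on the class share of the list, so this order does not show stronger clustering in Phase 1. With a minimum score of 30 the class shares were 13.9% in LP and 24.6% in Phase 1, and at equal length 22.3% in each. Over the 11 gene lists, the Phase 1 share of stage-specific peaks was 73.1% (n = 409) by nearest gene and 64.9% (n = 977) by starts within 100 kb. With strings sought within 50 bp, the RUNX string was found in 20.3% of LP-specific and 38.5% of Phase 1-specific peaks and the CTCF consensus in 14.7% and 1.42%. The cause of these shifts was not tested. The lists hold no depth per library, which limits how far their lengths can be compared.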

Other observations

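Med12 peaks of Phase 1 cells carrying a guide against Cbfb, which encodes the partner subunit of RUNX1, overlapped 1485 of the 5385 LP-specific RUNX1 sites (27.6%). Those of Phase 1 cells with a control guide overlapped 457 (8.49%), and Med12 peaks of LP and Phase 1 cells without a guide overlapped 61.9% and 15%. At Phase 1-specific sites the order was the reverse, with 612 (5.19%) under the Cbfb guide and 1156 (9.81%) under the control guide, and at shared sites the shares were 51.3% and 63.3%. The lists were of like length, with 18099 and 19053 peaks. Where CTCF was present in LP, LP-specific sites carried the Cbfb-guide Med12 peak in 43.1% (40.9% to 45.3%) against 11.1% with the control guide, and where it was absent in 18.6% against 6.96%. Each of the lists merges 2 libraries, so the difference has no replicate check.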
